A study of Mus musculus with 50 samples.

Results

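Distal chromosome 4 was followed in mouse liver through reads assigned to Eno1b, a copy of the enolase gene Eno1 that lies on chromosome 18, while Eno1 itself lies near the end of chromosome 4. The livers were grouped by their measured Eno1b value alone, with 29 of 50 livers below 3 normalized CPM (Eno1b-low) and 21 of 50 at 3 or more (Eno1b-high). The livers, counted here as 1 per library, came from males of 1 backcross, with 1 parent from (B6.A4 x B6)F1 and the other from (B6.A6 x B6)F1, so chromosomes 4 and 6 came from A/J or C57BL/6J (B6) and every other chromosome from C57BL/6J. The labels call the mice adult F2 animals, whereas the study's methods call them N2 animals, 5 weeks old and fasted overnight, and the tissue was the caudate lobe of the liver. Each mouse has 1 chromosome 4 entirely of C57BL/6J origin by this breeding scheme, so an A/J allele can be present in at most 1 copy. Genotypes were not used here, and no strain is assigned to either group. The question was which genes other than Eno1b differ between the groups, and where they lie relative to Eno1.

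Enolase converts 2-phosphoglycerate to phosphoenolpyruvate, a step that glycolysis and glucose production share, and Eno1 is its form in most tissues, liver included. Messenger RNAs that are copied back into the genome leave processed copies, which keep the coding sequence, lose the introns and often lack a promoter of their own. A short read from such a gene is placed by the few bases at which gene and copy differ, so a base change in the gene can move its reads to a copy. Alleles at neighbouring positions of a chromosome are usually inherited together, which lets 1 marked position stand for the genes around it.

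The copies are shown beside Eno1 because they differ at so few bases. The coding sequence of Eno1 has 1302 bases. Gm4735 differs from it at 5 of them, and the substitutions, counted from the first coding base with the base of Eno1 first, are T726C, T816G, A1056G, T1224C and C1233T. Eno1b differs from Eno1 at 8 of 1302 bases (99.4% identical), and at all 5 of the positions just named it has the base of Gm4735. Gm5855, on chromosome 3, is 96.4% identical to Eno1 and has the base of Gm4735 at 4 of these 5 positions. Gm8483 is 95.6% identical and has it at 3 of 5. The lines below give coding bases 1150 to 1239 of Eno1 in GRCm38 (chr4:150247913-150248489, plus strand, in 3 exons) and the matching stretches of Gm4735 (chr2:80838290-80838379, plus strand) and Gm8483 (chr14:14447724-14447813, minus strand), which are annotated as processed pseudogenes. Capitals mark bases that differ from Eno1, 2 in Gm4735 and 7 in Gm8483.
Eno1: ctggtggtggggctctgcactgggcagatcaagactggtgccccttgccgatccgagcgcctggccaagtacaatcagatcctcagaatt
Gm4735: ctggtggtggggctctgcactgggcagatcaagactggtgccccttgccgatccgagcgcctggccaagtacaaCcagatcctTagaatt
Gm8483: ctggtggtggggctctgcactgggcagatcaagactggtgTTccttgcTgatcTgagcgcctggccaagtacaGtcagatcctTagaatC

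The values of Eno1b (ENSMUSG00000059040), which chose the groups, lay far apart. In the 29 Eno1b-low livers they ran from 0 to 0.405 normalized CPM with a median of 0.145, which is 0 to 8 reads per library, and 6 of these libraries had 0 reads. In the 21 Eno1b-high livers they ran from 19.4 to 42.8 with a median of 30.04, or 242 to 899 reads. No liver lay between 0.405 and 19.4, so any threshold in that interval gives the same groups. The means were 29.6 ± 6.004 (SD, n = 21) and 0.149 ± 0.113 (SD, n = 29), given as a description because the rule used them. The rest on Eno1 and its copies is likewise given without a test, since their reads can be exchanged with those of Eno1b.

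The other copies separated the livers in the same way. Gm4735 ran from 11.01 to 19.97 (median 13.97) in Eno1b-high livers and from 0.0763 to 0.783 (median 0.522) in Eno1b-low livers. Gm8483 ran from 2.07 to 4.34 (median 2.95) against 0 to 0.157 (median 0). Gm5855, which was chosen after its values were seen because it shares sequence with Eno1b, ran from 0.740 to 2.14 (median 1.38) against 0 to 0.296 (median 0). For each of these 3 copies all 21 Eno1b-high livers were above all 29 Eno1b-low livers. The lowest of these values are within the floor of 3 reads, which was between 0.0951 and 0.259 normalized CPM per library and covers counting error only.

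Eno1 itself (ENSMUSG00000063524, chr4:150236721-150248879, plus strand) went the other way. It ran from 222 to 373 normalized CPM (median 288) in Eno1b-high livers and from 252 to 480 (median 342) in Eno1b-low livers, with means of 287 ± 44.3 (SD, n = 21) and 355 ± 62.8 (SD, n = 29). The groups overlapped, and 12 Eno1b-low livers were above every Eno1b-high liver. Summed with Eno1b, Gm4735, Gm8483 and Gm5855, the values came to 335 ± 53.1 (SD, n = 21) and 356 ± 62.8 (SD, n = 29), a difference smaller than either spread. The 4 copies together held between 13.2% and 15.5% of this sum in Eno1b-high livers (mean 14.3 ± 0.626%, SD) and between 0.0518% and 0.382% in Eno1b-low livers (mean 0.207 ± 0.0747%, SD). Reads that aligned to more than 1 place made up 11.4 ± 1.604% of all reads in Eno1b-high and 11.7 ± 1.87% in Eno1b-low libraries (SD).

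**Figure D1:**
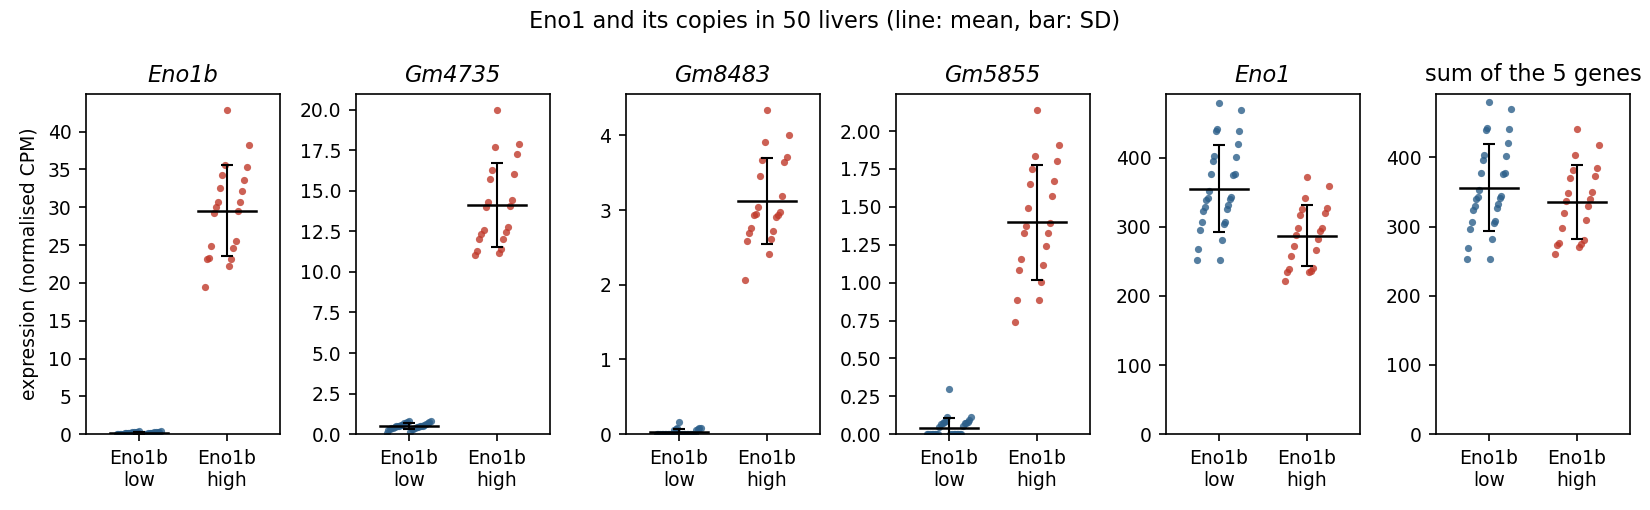
Expression of Eno1, 4 copies and their sum in normalized CPM, 1 point per liver, with the mean (line) and SD (bar) of 29 Eno1b-low and 21 Eno1b-high livers. Eno1b, Gm4735, Gm8483 and Gm5855 do not overlap between the groups, while Eno1 and the sum do; Eno1b chose the groups.

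The sequenced depth was alike in the groups. Reads counted in genes ran from 9430126 to 24355042 per library, with medians of 10564906 in Eno1b-high and 10955024 in Eno1b-low livers. The library numbers fall into a set numbered 1 to 30 and a set numbered 31 to 59. Eno1b-high livers made up 13 of 28 libraries (46.4%) in the first set and 8 of 22 (36.4%) in the second. Animal numbers averaged 211 ± 51.97 in Eno1b-high and 207 ± 50.9 in Eno1b-low livers (SD). The titles give 48 animal numbers for 50 libraries, so 4 libraries share an animal number with another, and all were kept. The groups were not tested against these labels.

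Outside Eno1 and its copies few genes passed the test, and nearly all of them lay on distal chromosome 4. Of 11423 genes with a mean of at least 1 normalized CPM, 9 passed limma's test with Benjamini-Hochberg adjustment at 0.05, which is 0.0788% of the genes tested, with 6 higher (0.0525%) and 3 lower (0.0263%) in Eno1b-high livers. On chromosome 4, 7 of 728 genes passed (0.962%), 4 of them higher and 3 lower. All 7 were among the 323 genes within 30 Mb of the start of Eno1 (2.17%), and 0 of the 405 genes farther away passed by limma, where 25 had an unadjusted p under 0.05. On the other chromosomes 1 of 10688 genes passed (0.00936%), namely the pseudogene Nudc-ps1 on chromosome 8. The remaining 1 of the 9 lies on a scaffold outside the assembled chromosomes.

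The called genes of chromosome 4 started between 12.02 Mb before and 5.63 Mb after the start of Eno1, and the last tested gene of the chromosome starts at 6.00 Mb. By distance, 1 of 119 genes passed between -20 and -10 Mb, 2 of 61 between -10 and 0 Mb and 4 of 59 between 0 and 10 Mb, where negative distances point to the centromere. An unadjusted p under 0.001 was found for 18 genes within 30 Mb of Eno1 (5.57%), for 0 of the 405 chromosome 4 genes beyond it and for 10 genes on other chromosomes (0.0936%). An unadjusted p under 0.05 was found for 8.68% of all genes tested, 22.9% within 30 Mb of Eno1 and 8.35% on other chromosomes. The median size of the difference was 0.063 on the log2(value + 0.5) scale within 30 Mb, 0.079 from 0 to 10 Mb and 0.053 on other chromosomes.

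**Figure D2:**
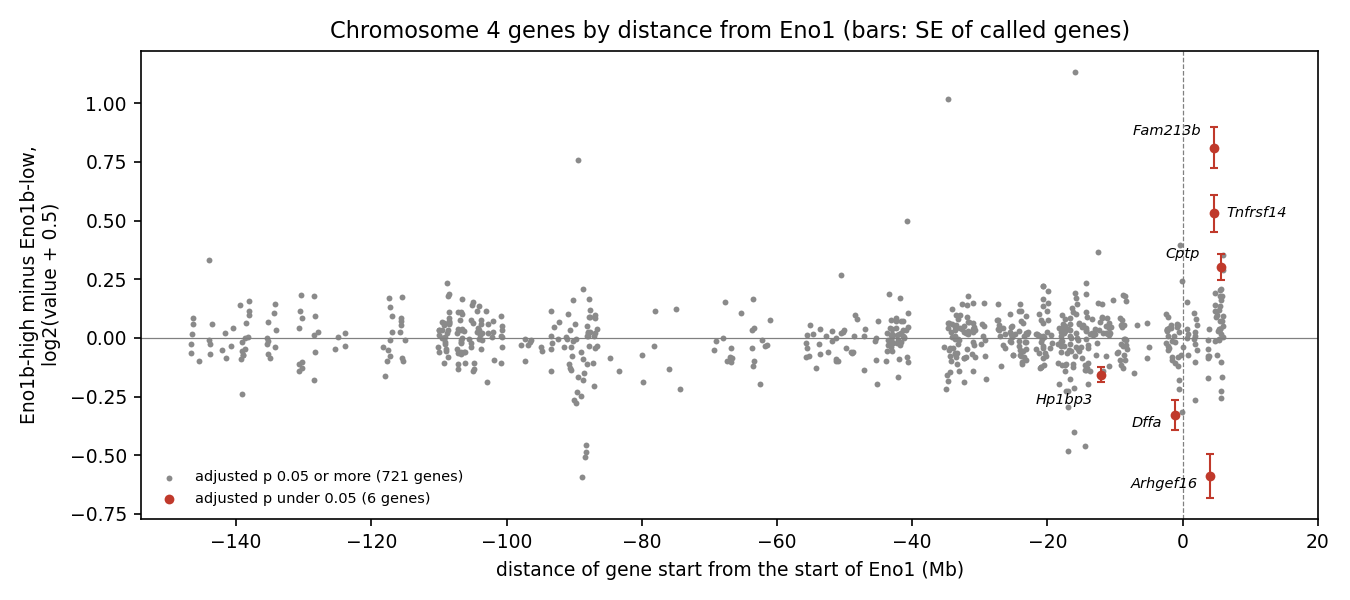
Difference between Eno1b-high and Eno1b-low livers on the log2(value + 0.5) scale for chromosome 4 genes, against the distance of each gene's start from the start of Eno1 in Mb (dashed line). The 6 genes named here that passed the limma threshold (adjusted p under 0.05, bars SE) lie between -12.02 and 5.63 Mb; the other genes are grey.

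Fam213b (ENSMUSG00000029059, chr4:154895504-154899135), 4.66 Mb after Eno1, encodes a prostamide and prostaglandin F synthase. It ran from 7.56 to 27.7 (median 13.6) in Eno1b-high and from 5.44 to 10.99 (median 8.07) in Eno1b-low livers, and 18 of 21 Eno1b-high livers were above every Eno1b-low liver. With means of 14.5 ± 4.22 (SD, n = 21) and 7.93 ± 1.53 (SD, n = 29), a ratio of 1.83, it had the largest difference of the called chromosome 4 genes, 0.81 on the log2(value + 0.5) scale (SE 0.089, limma with Benjamini-Hochberg adjustment, adjusted p = 1.30e-08). The library numbered 44 was highest at 27.7 and the next was at 19.97. Tnfrsf14 (chr4:154921933-154928563), a receptor of the TNF family on immune and epithelial cells that binds LIGHT and BTLA, is its close neighbour on the same strand, and both genes are annotated without overlap. Tnfrsf14 ran from 1.64 to 3.77 (median 2.83) against 0.950 to 2.70 (median 1.67), and 13 of 21 Eno1b-high livers were above every Eno1b-low liver. Its difference was 0.53 (SE 0.080, limma, adjusted p = 5.69e-05) and rested on 11 to 65 reads per library. For a gene of minor cell types such as this, fewer cells and less RNA per cell cannot be told apart in whole tissue.

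Cptp (chr4:155864723-155869440), at 5.63 Mb, carries ceramide-1-phosphate between membranes. It ran from 12.7 to 22.8 (median 17.7) in Eno1b-high and from 11.7 to 18.8 (median 14.7) in Eno1b-low livers, a ratio of means of 1.247. Its difference was 0.30 (SE 0.056, limma, adjusted p = 0.0031), and 19 of 21 Eno1b-high livers were above the Eno1b-low median.

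The 3 lower genes were Arhgef16, Dffa and Hp1bp3. Arhgef16 (chr4:154278486-154301676), at 4.04 Mb, encodes a guanine nucleotide exchange factor. It ran from 0.863 to 3.48 (median 2.08) in Eno1b-high and from 2.001 to 4.66 (median 2.91) in Eno1b-low livers, and its means were 1.997 ± 0.595 (SD, n = 21) and 3.23 ± 0.811 (SD, n = 29). Its difference was -0.59 (SE 0.093, limma, adjusted p = 0.000147), with 20 of 21 Eno1b-high livers below the Eno1b-low median and 11 to 128 reads per library.

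Dffa (chr4:149104146-149120647), 1.13 Mb before Eno1, holds the nuclease that cuts DNA in apoptosis in its inactive state. It ran from 6.61 to 12.96 (median 10.4) in Eno1b-high and from 8.75 to 16.03 (median 14.3) in Eno1b-low livers, so 23 of 29 Eno1b-low livers were above every Eno1b-high liver. All 21 Eno1b-high livers were below the Eno1b-low median. Its difference was -0.33 (SE 0.062, limma, adjusted p = 0.00377). Hp1bp3 (chr4:138216296-138244683), a chromatin protein related to linker histone H1, lay farthest away at -12.02 Mb. It ran from 50.8 to 70.9 (median 58.6) in Eno1b-high and from 59.4 to 76.1 (median 65.5) in Eno1b-low livers, and 20 of 21 Eno1b-high livers were below the Eno1b-low median. It had the smallest difference of the called genes, -0.16 (SE 0.031, limma, adjusted p = 0.0081). Without the 4 libraries that share an animal number Hp1bp3 no longer passed (adjusted p = 0.0663, between 0.00248 and 0.867 over its alternatives). Not 1 of the 11423 genes tested had groups that did not overlap (0%).

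The scaffold gene is ENSMUSG00000063897, named here after its values were seen. It ran from 5.896 to 12.8 (median 9.44) in Eno1b-high and from 4.53 to 8.69 (median 6.91) in Eno1b-low livers, with 16 of 21 Eno1b-high livers above every Eno1b-low liver, and its difference was 0.46 (SE 0.068, limma, adjusted p = 3.91e-05). The annotation gives it bases 15881 to 36183 of the scaffold. RefSeq lists a gene under chromosome 4, Dhrsx, with bounds of 14351 and 36213, but no identifier joins the entries, so it was counted apart.

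**Figure D3:**
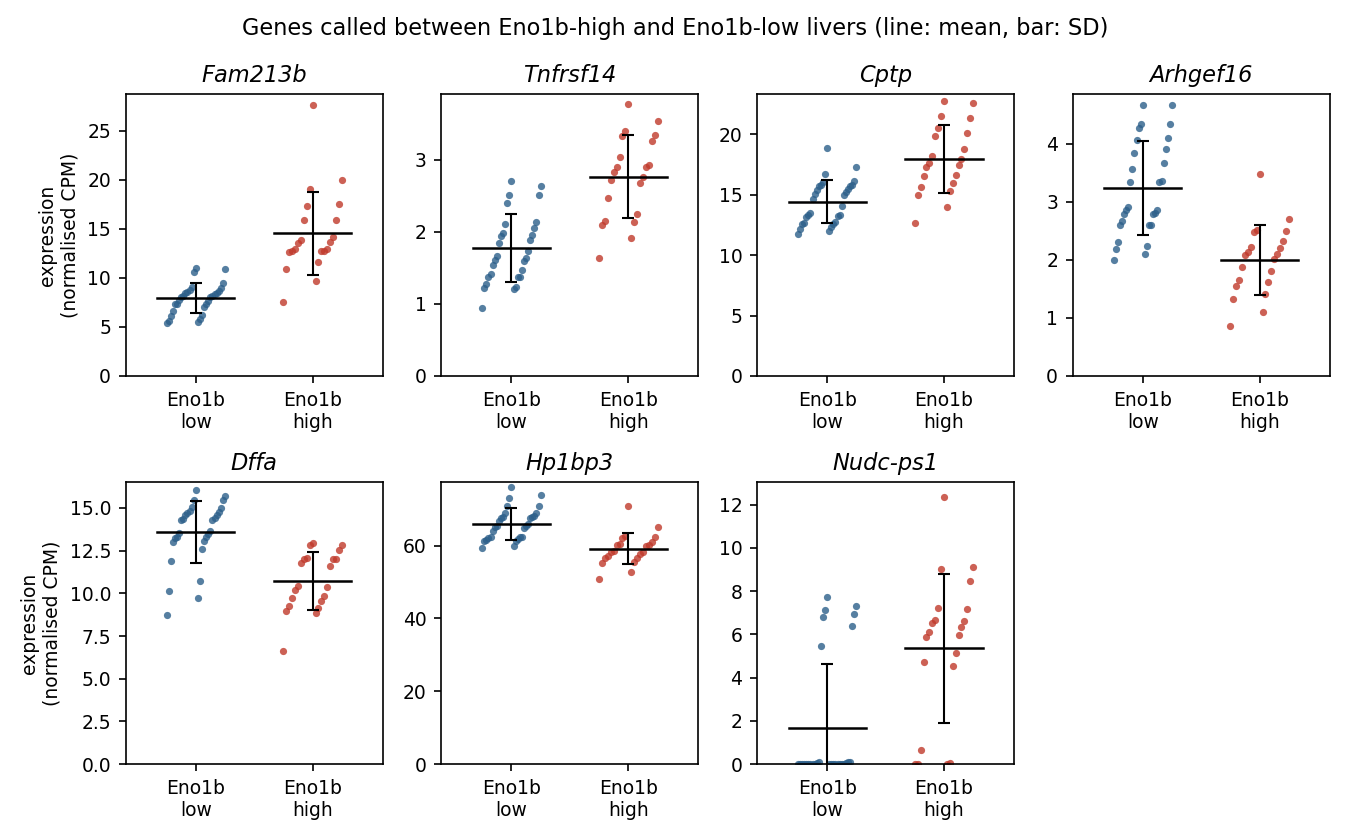
Expression in normalized CPM of 6 called genes of chromosome 4 and of Nudc-ps1, 1 point per liver, with the mean (line) and SD (bar) of 29 Eno1b-low and 21 Eno1b-high livers. Fam213b, Tnfrsf14, Cptp and Nudc-ps1 were higher and Arhgef16, Dffa and Hp1bp3 lower in Eno1b-high livers, and the groups overlap in every panel.

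The library numbered 15, an Eno1b-low liver, stood apart in called genes before Eno1. It had the lowest Dffa (8.75) and the lowest Hp1bp3 (59.4) of the 29, while its Fam213b, on the other side of Eno1, was 8.18. In both genes before Eno1 its values lay within the range of Eno1b-high livers. Without this library, a choice made after seeing the data, limma called 9 genes on chromosome 4 and 11 in all, and the 9 genes of the fit with every library were among them.

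The same fit was run within each set of library numbers. Within libraries 1 to 30 limma called 4 genes (0.035%), with Fam213b, Tnfrsf14 and Arhgef16 among them. Within libraries 31 to 59 it called 2 (0.0175%), with Fam213b among them. The Fam213b difference was 0.72 in the first set (limma, adjusted p = 0.00278) and 0.95 in the second (adjusted p = 0.0019). All 9 called genes had the sign of the pooled difference in both sets. They were chosen by the pooled fit on these same libraries, so this agreement is not independent support. A test of whether the tag difference itself differed between the sets called 0 genes (0%, limma interaction), with 477 at an unadjusted p under 0.05 and a smallest adjusted p of 0.988. edgeR's quasi-likelihood test on whole reads called 8 genes (0.07%), all of them among the 9.

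Among the genes next to Eno1 none passed the adjusted threshold. The 5 tested genes on each side start between 0.493 Mb before and 0.767 Mb after it, and 0 of these 10 passed by limma. Their differences ran from -0.32 to 0.40, and the smallest adjusted p was 0.138. Of the 10, 4 had an unadjusted p under 0.05 (Spsb1, Gpr157, Slc2a5 and Camta1), against 8.68% of all genes tested. H6pd, which makes NADPH in the endoplasmic reticulum in the first steps of a pentose phosphate path, was at 329 ± 51.5 (SD, n = 21) against 345 ± 53.7 (SD, n = 29), a difference of -0.073 (SE 0.063, limma, adjusted p = 0.729). Slc2a5, the fructose carrier GLUT5, was at 5.25 ± 1.55 against 4.38 ± 1.34 (SD), a difference of 0.24 (SE 0.11, limma, adjusted p = 0.565).

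The largest of these neighbour differences were those of Spsb1, an adaptor of ubiquitin ligases, and Gpr157, a G protein-coupled receptor. Spsb1 was at 1.597 ± 0.548 against 1.07 ± 0.311 (SD) and differed by 0.40 (SE 0.096, limma, adjusted p = 0.138). It passed when animal number was a covariate (0.38, adjusted p = 0.0428, between 0.0428 and 0.867 over its alternatives). Gpr157 was at 1.77 ± 0.409 against 2.34 ± 0.642 (SD) and differed by -0.32 (SE 0.085, limma, adjusted p = 0.323). The mitochondrial pyrimidine nucleotide carrier Slc25a33, the corepressor Rere, the EGF receptor inhibitor Errfi1, the redox-sensitive chaperone Park7, the transcription factor Camta1 and the clock gene Per3 differed by between -0.071 and 0.15. The 95% intervals, not adjusted for the number of genes, were 0.20 to 0.59 for Spsb1 and -0.49 to -0.15 for Gpr157. They included 0 for Rere (-0.14 to 0.065), Park7 (-0.053 to 0.12) and Per3 (-0.43 to 0.28).

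Nudc-ps1 (ENSMUSG00000110331, chr8:29286431-29286981) is a partial processed copy of Nudc, which helps the motor protein dynein and its partners fold and lies 16.7 Mb before Eno1 (chr4:133532542-133545996, minus strand). Over 551 aligned bases Nudc-ps1 differs from Nudc at 2, and 88.1% of its 31-base stretches also occur in Nudc transcripts.

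Nudc-ps1 ran from 0 to 12.4 normalized CPM (median 6.12) in Eno1b-high and from 0 to 7.74 (median 0) in Eno1b-low livers. Its difference was 2.04 (SE 0.45, limma, adjusted p = 0.0497), and it no longer passed under 8 of the 17 alternatives that kept it, with adjusted p between 0.0168 and 0.867 over all 17. When the fit allowed for the 2 sets of numbers, its adjusted p was 0.073. Of the 21 Eno1b-high livers 18 were above the Eno1b-low median, but that median was 0, so any read was enough. The values of all 50 livers fell on 2 sides, with 27 at or under 0.656 and 23 at or above 4.55. The side matched the Eno1b group in 38 of 50 livers. The exceptions were 5 Eno1b-high livers on the lower side (libraries 21, 24, 25, 32 and 42) and 7 Eno1b-low livers on the upper side (libraries 7, 13, 15, 20, 36, 38 and 43). Nudc itself was at 47.8 ± 7.13 (SD, n = 21) against 44.7 ± 4.2003 (SD, n = 29), a difference of 0.086 (SE 0.049, limma, adjusted p = 0.605). Nudc-ps1 held 12.7 ± 1.57% (SD) of the summed values of both genes on the upper side.

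Extl1 (ENSMUSG00000028838, chr4:134356372-134383850), an enzyme of the exostosin family that adds sugars in heparan sulfate synthesis, lies 15.9 Mb before Eno1. It ran from 0.784 to 14.7 (median 8.37) in Eno1b-high and from 0.325 to 14.2 (median 1.71) in Eno1b-low livers. Its difference of 1.13 was large but uneven and did not pass (SE 0.32, limma, adjusted p = 0.351, with 18 of 21 Eno1b-high livers above the Eno1b-low median). Set against the sides of Nudc-ps1, its values are given here without a test. On the upper side it ran from 2.08 to 14.7 (median 9.44) and on the lower side from 0.325 to 5.38 (median 1.42), and 22 of 23 upper livers were above all 27 lower livers. The exception was the library numbered 1. In the 7 Eno1b-low livers of the upper side Extl1 was between 6.67 and 14.2, and in the 5 Eno1b-high livers of the lower side between 0.784 and 4.09.

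**Figure D4:**
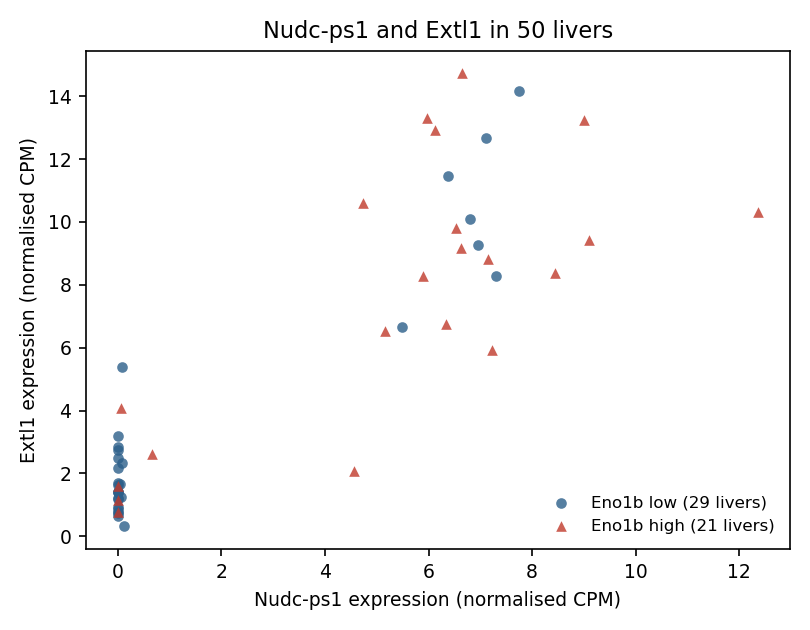
Extl1 against Nudc-ps1 in normalized CPM, 1 point per liver, with Eno1b-low livers as circles and Eno1b-high livers as triangles. Nudc-ps1 is at 0.656 or less in 27 livers and at 4.55 or more in 23, Extl1 is higher on the upper side, and both sides hold livers of both Eno1b groups.

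In the livers whose Nudc-ps1 side did not match their Eno1b group, genes nearer to Eno1 are given as a description. In the 5 Eno1b-high livers of the lower Nudc-ps1 side Fam213b was between 10.96 and 13.9 (median 12.8). In the 7 Eno1b-low livers of the upper side Fam213b was between 7.07 and 9.50 (median 8.49). For Hp1bp3 the medians of these livers were 62.5 and 61.2, between the 57.9 of the other Eno1b-high livers and the 67.7 of the other Eno1b-low livers.

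Lists of related genes held no called member, and their counts at an unadjusted p under 0.05 stand against 8.68% of all genes tested. Of 27 tested genes of glycolysis and glucose production 0 passed by limma and 1 had an unadjusted p under 0.05, with a median difference of 0.0025 against 0.0042 over all 11423 genes. The highest difference was 0.16, for glucose-6-phosphatase (G6pc). Of 8 genes of the pentose phosphate path 0 passed and 1 had an unadjusted p under 0.05 (median -0.014, from -0.073 for H6pd to 0.14 for Pgls, the lactonase of the path). Of 16 genes of heparan sulfate synthesis 0 passed and 3 had an unadjusted p under 0.05 (median 0.0031, from -0.17 for the linker enzyme B3galt6 to 1.13 for Extl1). B3galt6, 5.75 Mb after Eno1, and Extl1 are among these 3. Both lie within 30 Mb of Eno1, where 22.9% of genes had such a p. Of 14 genes for NudC and dynein partners 0 passed at either threshold (median 0.014, from -0.15 for Dync1h1 to 0.15 for Dynll1).

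Genes that differ between male and female mouse liver were tested because chromosome 4 carries the Mup genes, which encode carriers of urinary pheromones. Of 11 male-type genes 0 passed by limma, adjusted or unadjusted, and their median difference was -0.11, from -0.48 for Mup20 to 0.072 for Cyp2u1. Of 7 female-type genes 0 passed either way, with a median of 0.38, from -0.049 for Cyp3a44 to 0.78 for Cyp2b9. Of 20 Mup genes 0 passed either way, with a median of -0.13, and they ran from -0.59 for Mup15 to 0.76 for Mup12. The spread of these genes was wide, with Mup12 at 601 ± 699 (SD, n = 21) against 460 ± 750 (SD, n = 29).

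The tissue carried the markers of liver at high levels in both groups, with the 8 hepatocyte markers summing to 101453 ± 11477 in Eno1b-high and 97300 ± 11408 normalized CPM in Eno1b-low livers (SD), most of it Alb. Of these 8 markers 0 passed by limma and 2 had an unadjusted p under 0.05, against 8.68% of all genes tested, with differences from -0.17 for Hnf4a to 0.082 for Serpina1a. Markers of other cells summed to like levels in both groups, and 0 passed. The 9 Kupffer cell markers summed to 452 ± 58.8 against 441 ± 58.1 (SD, most abundant Cd5l), with 1 at an unadjusted p under 0.05. The 7 endothelial markers summed to 262 ± 23.7 against 264 ± 28.5 (most abundant Eng), also with 1 under 0.05, against the same 8.68%. The 7 stellate cell markers summed to 159 ± 31.01 against 160 ± 33.8 (most abundant Dcn), and the 4 cholangiocyte markers to 30.4 ± 5.27 against 30.4 ± 5.36 (most abundant Spp1). The 5 blood and myeloid markers summed to 214 ± 30.8 against 217.6 ± 40.3 (most abundant Hbb-bs), and of the lymphocyte markers only Cd79b was tested, with a mean of 1.32 over all livers.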

How the data were processed

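RNA was sequenced as 50 stranded paired-end libraries, counted here as 1 liver each. The study gives fewer mice with liver RNA than there are libraries. After adapter trimming, the authors used HISAT2 for alignment to the GRCm38.p5 genome and HTSeq 0.11.1 for gene counts. Low-count genes were dropped and edgeR scaled what remained. The deposited values are thus a signal, CPM over a scaled library total, here called normalized CPM. Of 12185 rows in the table, 5 are summary rows that name no gene (such as reads without a feature). They held between 17.0% and 25.3% of a library's reads (mean 21.3%) and were left out, which leaves 12180 genes. Divided by the value of 1 read in its library, 100% of the values were whole within 0.01 read, and edgeR on these reads called 8 genes. Reads in genes had a median of 10791083 per library, and 1 read was worth between 0.0317 and 0.0864 normalized CPM.

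Livers were grouped by Eno1b (below 3, or 3 and more). Genes with a mean of at least 1 were tested on log2(value + 0.5), Eno1b-high minus Eno1b-low, 2-sided, with limma 3.58.1 in R 4.3.3 and Benjamini-Hochberg adjustment over all genes tested (threshold 0.05). A fold change on this scale understates that of low genes. Eno1b and genes sharing a 31-base transcript stretch with it (Eno1, Gm4735, Gm5855, Gm8483, Fermt3, Mkln1, Rabgap1 and B4galt6) were not tested. The labels give no treatment groups. The sets of library numbers and the shared animal numbers were left out of the fit and tried as alternatives, so the p-values measure the spread between these libraries under the measured grouping. Positions, transcripts and printed sequences came from GENCODE M21 (GRCm38), and 1 gene name from RefSeq. Sequences were aligned with Biopython 1.88. Other steps used Python 3.11.15 with pandas 2.3.3 and numpy 2.4.6, and plots matplotlib 3.10.9.

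The text names Eno1b, Eno1, Gm4735, Gm8483, Nudc-ps1, Extl1 and Nudc, the called genes of chromosome 4 (at most 12 in each direction by adjusted p) and elsewhere (at most 6), the 5 tested genes nearest Eno1 on each side, called members of the lists and each list's lowest and highest member. Members and lists were chosen with earlier results of these data known. Other genes are said to have been chosen after their values were seen, and some results are not reported here. The lists covered glycolysis and glucose production, the pentose phosphate path, heparan sulfate synthesis, NudC and dynein partners, male-type and female-type liver genes, Mup genes and markers of 7 cell types.

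The fits were tested on simulated data. Alternatives covered the pseudocount, the filter, the Eno1b threshold or its log2 value as a number, plain CPM, edgeR 4.0.16 on whole reads, a mean-variance trend, 3 covariates and subsets of libraries. Leaving out the library numbered 15 was chosen after seeing the data.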

Additional observations from a re-analysis of the deposited data

How the results depend on the processing

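The counts of called genes on chromosome 4, within 30 Mb of Eno1 and in all stayed within 1.5 times those reported (7, 7 and 9) under 16 of 18 alternatives. In libraries 1 to 30 alone they were 4, 4 and 4, and in libraries 31 to 59 alone 2, 2 and 2, with fewer samples. The 1 gene on other chromosomes, Nudc-ps1, was lost (0 called) with a pseudocount of 1, no filter, a mean of at least 5 (which leaves it out), edgeR on whole reads, the set of numbers or animal number as a covariate, without the 4 libraries that share an animal number, and in either set alone. Fam213b passed under all 18 alternatives. Cptp and Dffa were lost in either set alone, Arhgef16 and Tnfrsf14 in libraries 31 to 59, and Hp1bp3 in either set and without the 4 libraries.

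The differences that changed sign belonged to genes that did not pass. They were Errfi1 with the set of numbers (0.011) or animal number (0.0070) as a covariate, without the library numbered 24 (0.018) and in libraries 1 to 30 (0.054). In libraries 1 to 30 Slc25a33 (-0.034) and Clec4g (-0.020) also changed sign. In libraries 31 to 59 they were H6pd (0.035), Per3 (0.41), Cyp3a44 (0.041), Mup15 (1.39), Spp1 (-0.058), Cd79b (-0.019) and Alas2 (0.056). Spp1 was also at -0.015 without the 4 libraries. The cause was not tested. The size of the Eno1b, Gm4735 and Gm8483 differences depended on the pseudocount, because their low values rest on few reads. A mean filter of 5 leaves out Tnfrsf14, Arhgef16, Spsb1, Gpr157, Slc2a5, Camta1, Per3, B3galt6, Cyp3a44, Des, Sox9 and Cd79b. Neither genotypes nor the strain of the tagged allele were analysed here, and reads shared between a gene and its copies cannot be assigned from gene counts.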

Other observations

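Other genes also parted the livers into sides. After seeing the data, genes were sought whose log2(value + 0.5) had an inner gap of at least 1 with at least 10 livers on each side, and 11 genes of mean 1 or more had one. Beside Eno1b, Gm4735, Gm8483 and Nudc-ps1 they were Cyp4a32, Mup12 and Mup15 on chromosome 4, C1s2 and C1rb on chromosome 6, Gm15501 on chromosome 7 and Gm13394 on chromosome 2. Gm13394 shares 96.8% of its 31-base stretches with Gapdh, a glycolysis enzyme on chromosome 6, and as much with Gm7336 on chromosome 7. Gm15501 and Gm13394 are annotated outside the chromosomes that segregate in the cross.

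Gm15501 parted the livers exactly as Cyp4a32 did, 21 on the upper and 29 on the lower side, the same in 50 of 50 livers. Cyp4a32, a fatty acid hydroxylase gene, starts 34.6 Mb before Eno1. Gm13394 parted them exactly as the complement gene C1s2 did, 32 above and 18 below, also the same in 50 of 50. C1s2 was at or under 0.328 normalized CPM on its lower side and at or above 4.67 on its upper side. For Gm13394 these bounds were 7.94 and 84.4.

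The number of livers whose side matched their Eno1b group was 50 of 50 for Gm4735 and Gm8483, 38 for Nudc-ps1, 34 for Gm15501 and for Cyp4a32, 30 for Mup12 (89.5 Mb from Eno1) and 23 for Mup15 (88.8 Mb). It was 25 of 50 for the chromosome 6 genes C1s2 and C1rb and for Gm13394. The sides of Cyp4a32 matched those of Nudc-ps1 in 46 of 50 livers and those of Mup12 in 42. These are counts without a test, over few genes that were chosen for their gaps.

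Few genes outside chromosome 4 resemble its genes as closely as Nudc-ps1. Of 10688 tested genes on other chromosomes, 3 share at least 50% of their 31-base stretches with genes within 30 Mb of Eno1. Nudc-ps1 was the only one of them that passed limma's test. Gm10036, which shares 76.6% with the ribosomal gene Rpl11, was at 1.07 in Eno1b-high and 1.01 in Eno1b-low livers, and Gm15590 was at 1.87 and 1.73.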
